A study of Mus musculus with 6 samples.

Results

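Plakins are giant proteins that tie the filaments of the cytoskeleton to each other and to the junctions at which cells hold on to their neighbours or to the basement membrane. The genes Macf1, Dst, Plec, Dsp, Eppk1, Evpl and Ppl, taken by their symbols, make up 7 of the 24411 genes in each library, and all 7 passed the filter on low counts that left 15303 genes for testing. Their reads were compared between Kir2.1-OE mice and littermate controls at postnatal day (P) 9. In Kir2.1-OE mice, heterozygous for Otof rtTA and for a tetO-Kir2.1-IRES-tau-lacZ transgene, doxycycline (DOX) induces Kir2.1, an inward rectifier K+ channel, and the Otof promoter that drives rtTA acts in hair cells and mainly in inner hair cells (IHCs). Controls were heterozygous for Otof rtTA without the transgene. The mothers of both groups drank water with 0.5 mg/ml DOX while pregnant and nursing. Each group had 3 libraries, each from 1 pool of 8 cochleae from 4 mice. The pools held the microdissected sensory epithelium with its supporting cells and nerve fibres, so a count is that of the tissue and not of the IHCs, which are a small part of it.

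Macf1, Dst and Plec proteins bind actin through a paired calponin homology domain at one end. The long forms of Macf1 and Dst also bind microtubules, and Plec binds intermediate filaments. Dsp anchors intermediate filaments to desmosomes, Evpl and Ppl are found at desmosomes and in the cornified envelope of stratified epithelia, and Eppk1 is built of plakin repeats that bind keratin filaments. In the organ of Corti, microtubules and keratins fill the supporting cells, microtubules and actin brace the apex of the hair cells, and desmosomal proteins are part of the junctions of the epithelium.

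The coding sequences show how closely the actin-binding members are related, and whether their reads could be confused. A stretch of 90 nt in the actin-binding part of the coding sequence is printed from the GENCODE vM21 transcripts, with capitals for each base that differs from Macf1.

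Macf1, coding positions 328 to 417: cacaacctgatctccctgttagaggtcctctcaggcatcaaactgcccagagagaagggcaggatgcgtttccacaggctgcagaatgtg
Dst, coding positions 199 to 288: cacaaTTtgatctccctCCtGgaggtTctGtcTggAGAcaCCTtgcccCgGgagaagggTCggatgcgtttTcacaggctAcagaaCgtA
Plec, coding positions 664 to 753: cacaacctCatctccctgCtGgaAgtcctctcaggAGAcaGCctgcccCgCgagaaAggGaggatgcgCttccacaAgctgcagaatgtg

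This stretch was the best match of Macf1 and Plec. Over it Dst shared 75.6% and Plec 83.3% of the bases of Macf1. The best match of Macf1 and Dst over 90 nt lay elsewhere, at Macf1 coding positions 13654 to 13743. There Dst shared 85.6% of the bases of Macf1. Between the longest transcripts of Macf1 and Dst the longest run of identical bases was 20 nt, and between those of Macf1 and Plec it was 24 nt. Their other transcripts were not compared in this way. Dst held 5.09% of its 31-base words, and Plec 0.227%, in common with any other gene, while Macf1, Evpl and Ppl held none. Dsp shared 4.9% of its words, with Gm10129, annotated on its other strand, among others. Eppk1 was the member most open to uncertain counting. Of its words, 26.6% occur more than once within Eppk1 and 6.54% occur in another gene, among them the overlapping gene BC024139, which had at most 10 counts in any library. The longest run that the longest transcripts of Eppk1 and Plec share is shown as the place where these sequences come closest.

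Plec and Eppk1, 50 nt: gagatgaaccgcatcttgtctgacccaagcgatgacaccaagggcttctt

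In all 6 libraries Kcnj2, which encodes Kir2.1, was where the labels put it. Values are given in the order of replicates 1 to 3. Kcnj2 had 3612, 3813 and 2213 normalized counts in Kir2.1-OE libraries and 236, 228 and 226 in controls, with a log2 fold change of 3.80 (SE 0.199, edgeR adjusted p = 7.04e-05). Normalized counts are expected counts scaled to a common library size. A gene was called when its edgeR quasi-likelihood adjusted p was under 0.05 and its fold change above 1.5. Between 35430940 and 41205047 reads were assigned per library, and no read in a library allows a share of up to 8.47e-06%.

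The difference was called, and was an increase in Kir2.1-OE mice, for all 7 plakin genes, where 15.5% of all genes tested were called higher and 5.08% lower. Their median log2 fold change was 1.44, beside 0.01 for all genes tested. Summed, they had 494, 402 and 364 RPM (reads scaled to library depth) in Kir2.1-OE libraries and 130, 153 and 108 in controls. The lowest Kir2.1-OE library was well above the highest control, and the ratio of the means was 3.23. In bulk tissue, a change in the number of cells of a type and one in RNA per cell cannot be told apart. This holds for every value below. In each of the 7 genes the 3 Kir2.1-OE libraries lay above the 3 controls, as they did in 31.7% of all genes tested, while the Kir2.1-OE libraries lay below the controls in 29.9%. An exact two-sided permutation test gave p = 0.10 for each, the smallest that 3 libraries against 3 can give.

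**Figure D1:**
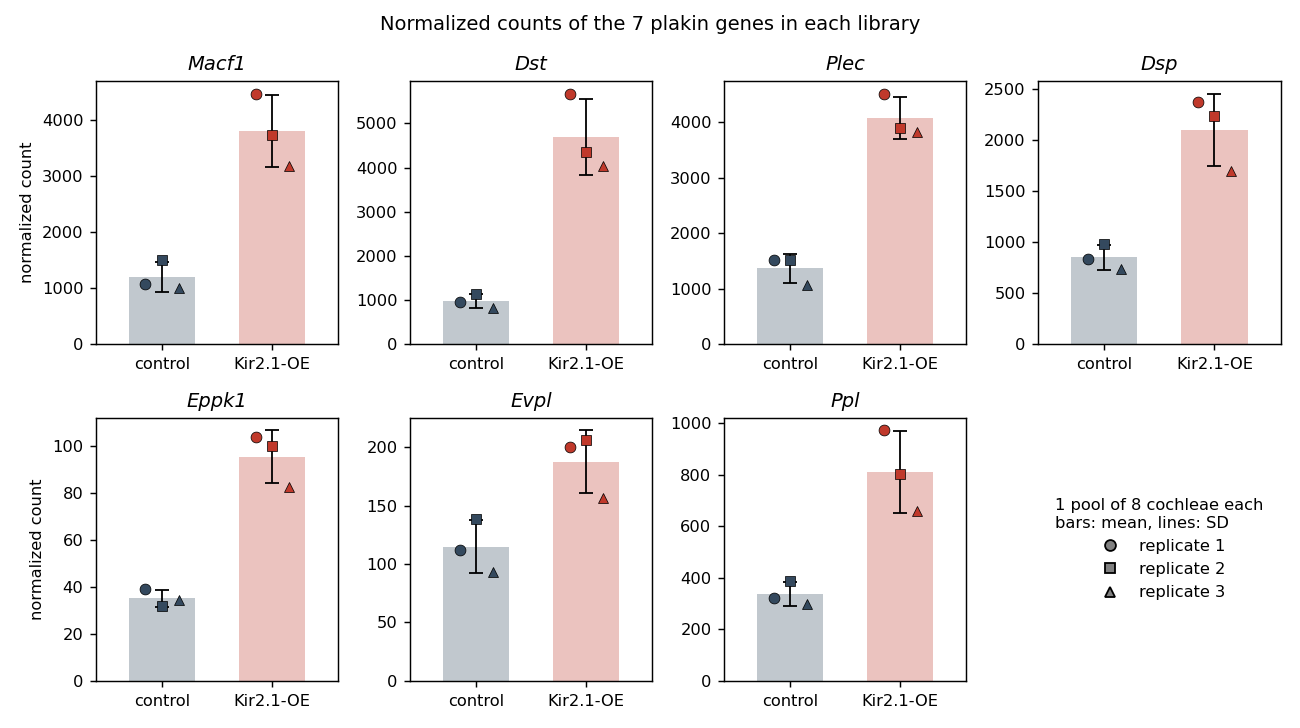
Normalized counts (linear axis) of each plakin gene in the 3 Kir2.1-OE and 3 control libraries, with 1 point per library, a bar for the mean and a line for the SD. In every gene the red Kir2.1-OE points lie above the dark control points, with the narrowest gap in Evpl.

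Dst (dystonin, chr1:33908225-34308661, + strand, mm10), the spectraplakin known from hemidesmosomes and from sensory axons, rose most. It had 5675, 4361 and 4034 normalized counts in Kir2.1-OE libraries and 951, 1148 and 824 in controls. Replicate 1 was the highest of the Kir2.1-OE libraries, and every control was far below the lowest of them. The log2 fold change was 2.27 (SE 0.153, edgeR adjusted p = 0.000115), the highest of the 38 genes tested whose longest transcript is over 16000 nt. With the length and GC offsets described below, Dst ranked 2 among these 38.

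Macf1 (microtubule-actin crosslinking factor 1, chr4:123349633-123684360, - strand), the spectraplakin that guides growing microtubules along actin, had 4474, 3739 and 3189 normalized counts in Kir2.1-OE libraries and 1079, 1506 and 1003 in controls. Control replicate 2 was the highest control for Macf1 and stayed well below the lowest Kir2.1-OE library. The log2 fold change was 1.67 (SE 0.166, edgeR adjusted p = 0.000158). Plec (plectin, chr15:76170974-76232574, - strand), the linker of intermediate filaments to hemidesmosomes and other anchor sites, had 4519, 3895 and 3829 normalized counts in Kir2.1-OE libraries and 1512, 1526 and 1063 in controls. Its Kir2.1-OE libraries all lay far above its highest control, and control replicate 3 was the lowest. The log2 fold change of Plec was 1.58 (SE 0.136, edgeR adjusted p = 0.000129).

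Dsp (desmoplakin, chr13:38151294-38198577, + strand), the core plaque protein of desmosomes, had 2369, 2229 and 1699 normalized counts in Kir2.1-OE libraries and 833, 980 and 738 in controls. Its Kir2.1-OE replicate 3 was the lowest of its group and still above each control. Dsp rose by a log2 fold change of 1.30 (SE 0.140, edgeR adjusted p = 0.000186). Ppl (periplakin, chr16:5086291-5132421, - strand), which pairs with envoplakin, had 973, 802 and 658 normalized counts in Kir2.1-OE libraries and 323, 389 and 299 in controls. The groups of Ppl did not overlap, and the Kir2.1-OE libraries were the more spread. Ppl rose by 1.27 on the log2 scale (SE 0.157, edgeR adjusted p = 0.000295).

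Eppk1 (epiplakin, chr15:76101481-76120195, - strand) was the least abundant member, with 104, 99.9 and 82.5 normalized counts in Kir2.1-OE libraries and 39.1, 31.8 and 34.6 in controls. Its groups were apart by more than the range of either, on few reads. The log2 fold change of Eppk1 was 1.44 (SE 0.225, edgeR adjusted p = 0.000851). Evpl (envoplakin, chr11:116220559-116238077, - strand), the partner of periplakin in the cornified envelope, had 200, 206 and 157 normalized counts in Kir2.1-OE libraries and 112, 139 and 93.6 in controls. Kir2.1-OE replicate 3 was only a little above control replicate 2 in this gene. Evpl had the smallest difference of the 7, a log2 fold change of 0.70 (SE 0.196, edgeR adjusted p = 0.0145). Evpl was also the only member whose call was lost when a library was left out. It gave 0.64 (edgeR adjusted p = 0.0588) without Kir2.1-OE replicate 1 and 0.61 (edgeR adjusted p = 0.0540) without Kir2.1-OE replicate 2. Without control replicate 3 it gave 0.58, under the 1.5-fold limit, with an edgeR adjusted p of 0.0482.

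Against a null log2 fold change of 0.6 (edgeR's glmTreat), 6 of the 7 members were called, where 5.44% of all genes tested were called higher, and Evpl (adjusted p = 0.739) was the exception. The order of the libraries was much alike across the members. Kir2.1-OE replicate 3 was the lowest Kir2.1-OE library in all 7 genes, and Kir2.1-OE replicate 1 was the highest in 6. Control replicate 2 was the highest control in 6 genes and control replicate 3 the lowest in 6. In both cases Eppk1 was the exception.

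The log2 fold changes of the members ran from 0.70 to 2.27. Expressed as a log2 ratio to Macf1 within each library, a measure that scaling between libraries cannot move, Dst was 0.34, 0.22 and 0.34 in Kir2.1-OE libraries and -0.18, -0.39 and -0.28 in controls. Dst was thus read less than Macf1 in every control and more than Macf1 in every Kir2.1-OE library, and the mean difference was 0.59. Dst made up 30.99%, 28.44% and 29.55% of all plakin reads in Kir2.1-OE libraries against 19.61%, 20.08% and 20.33% in controls. Relative to Macf1, Evpl was lower in Kir2.1-OE mice by a log2 difference of -0.96, Ppl by -0.42 and Dsp by -0.38, with no overlap between the groups in any of these. Plec (-0.08) and Eppk1 (-0.24) overlapped between the groups. The exact two-sided permutation p was 0.10 for Dst, Evpl, Ppl and Dsp, 0.15 after Benjamini-Hochberg adjustment over the 6 ratios, and 0.60 for Plec and 0.40 for Eppk1 unadjusted, so none of the ratios could pass 0.05 in this design, and a difference between members in their rise was not shown. These ratios are not corrected for transcript length. With the length and GC offsets described below, the log2 fold changes were 0.69 for Ppl, 0.67 for Macf1 and 0.56 for Dsp, so Ppl no longer lay below Macf1 and Dsp lay closer to it.

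**Figure D2:**
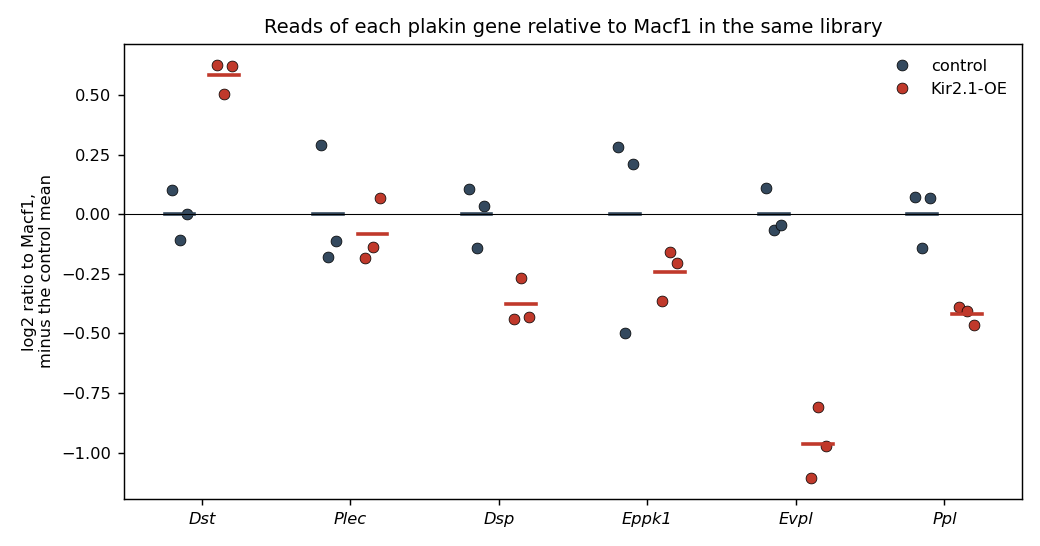
Log2 ratio of each plakin gene to Macf1 within a library, minus the mean ratio of the controls, with 1 point per library and a bar at the group mean. Dst lies above its controls in Kir2.1-OE libraries, Dsp, Evpl and Ppl lie below theirs, and Plec and Eppk1 overlap.

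Divided by the length of the longest transcript and by depth (RPKM), the levels of the members had another order than their reads. In controls, the level was 2.36 ± 0.338 RPKM (SD, n = 3) for Dsp and 2.36 ± 0.455 for Plec, which did not differ beyond their spread. Ppl (1.44 ± 0.199), Macf1 (1.36 ± 0.308) and Dst (1.12 ± 0.187) followed well below Plec, and neither Ppl and Macf1 nor Macf1 and Dst differed beyond their spread. Evpl (0.480 ± 0.0952) and Eppk1 (0.0760 ± 0.00799) were far lower, and each lay below the member before it by more than its spread. In Kir2.1-OE libraries Plec led at 7.04 ± 0.656 RPKM, followed by Dsp (5.83 ± 0.982), Dst (5.37 ± 0.994), Macf1 (4.31 ± 0.731) and Ppl (3.48 ± 0.676). Among these only Dsp and Dst were within 1 SD of their neighbour in the order. By its mean, Dst stood above Macf1 and Ppl on this scale only in Kir2.1-OE libraries. Evpl (0.783 ± 0.113) and Eppk1 (0.206 ± 0.0244) stayed last. Dst has 20 annotated transcripts with a median length of 4539 nt, and a gene whose reads come from shorter forms is understated by this scale. Divided by the length of the median transcript instead, Dst led all members already in controls, at 5.72 ± 0.96 RPKM. Dsp (2.92 ± 0.42), Plec (2.45 ± 0.47) and Macf1 (2.20 ± 0.50) followed, so the place of Dst depends on the transcript used.

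Transcript length moved with the genotype difference over all genes, and the plakins are among the longest transcripts of the mouse. The longest transcript of Macf1 is 23495 nt, and those of Dst, Plec and Eppk1 are 23279, 15455 and 12332 nt. Dsp follows at 9592 nt, Evpl at 6384 nt and Ppl at 6217 nt. Over the tested genes of 6000 to 8000 nt the median log2 fold change was 0.54 and 44.5% were called higher, and over those of 8000 to 10000 nt it was 0.73 with 58.8%. The corresponding values were 0.91 and 71.6% from 10000 to 16000 nt, and 1.13 and 65.8% above 16000 nt. Within these length groups, the log2 fold change of Dst ranked 1 of 38 and that of Macf1 9 of 38, Plec ranked 32 and Eppk1 56 of 341, Dsp ranked 67 of 507, and Ppl ranked 98 and Evpl 471 of 1289. Evpl was the member nearest to the middle of the genes of its length in this fit. With the length and GC offsets described next, Dst ranked 2 and Macf1 9 of 38, and Dsp ranked 101 of 507. Eppk1 then ranked 125 and Plec 161 of 341, with Plec near the middle. Ppl ranked 129 and Evpl 889 of 1289, with Evpl below the middle.

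**Figure D3:**
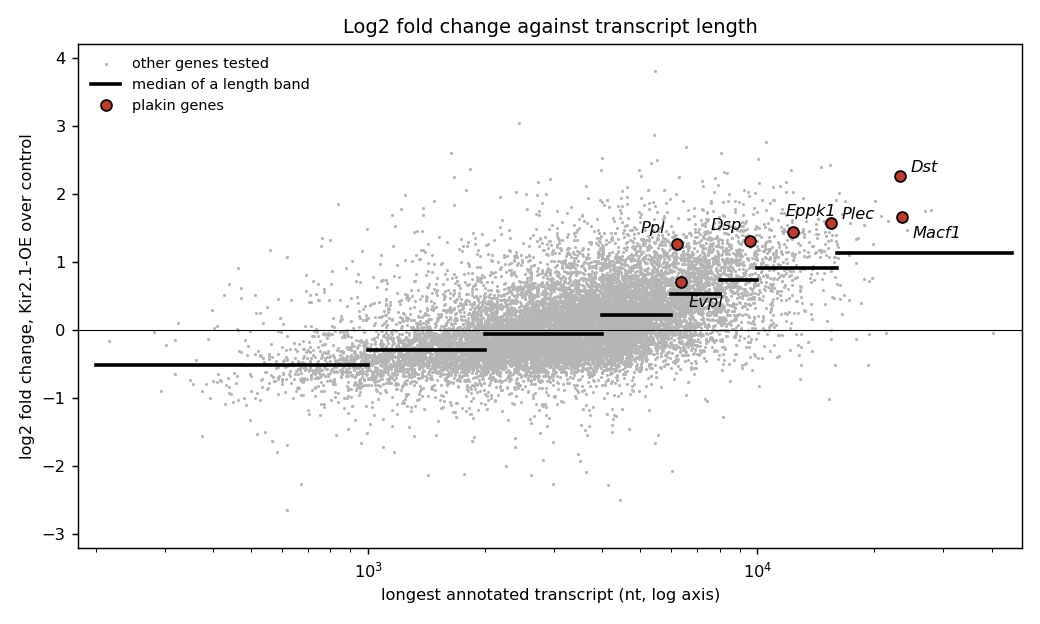
Log2 fold change (Kir2.1-OE over control) of 15191 tested genes, with the 7 plakins in red, against the length of the longest annotated transcript (nt, log axis), with bars at the median of each length group. The medians climb with length, and all 7 plakins lie above the median of their group.

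With the trend of each library over transcript length and GC content entered in the edgeR model as an offset, 3 of the 7 members were called higher, where 8.21% of all genes tested were. Dst kept the largest log2 fold change of the 7 at 1.16 (SE 0.106, adjusted p = 9e-04). When the offsets were taken from the median transcript of each gene, an alternative chosen after seeing the data, Dst gave 1.99 and Macf1 0.90. Ppl gave 0.69 (SE 0.126, adjusted p = 0.00451) and Macf1 0.67 (SE 0.127, adjusted p = 0.00528). Dsp (0.56, adjusted p = 0.00559) and Plec (0.23, adjusted p = 0.0481) stayed below the 1.5-fold limit with an adjusted p under the threshold. Eppk1 (0.37, adjusted p = 0.231) and Evpl (-0.088, adjusted p = 0.722) did not pass it. The median over the 7 members was 0.56, beside 0.04 for all genes tested. The trend over length has the same direction as the genotype, so a shift of all long transcripts between the groups and a change of the long plakin genes cannot be told apart, and its part in the plakin differences was not tested beyond these offsets.

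**Figure D4:**
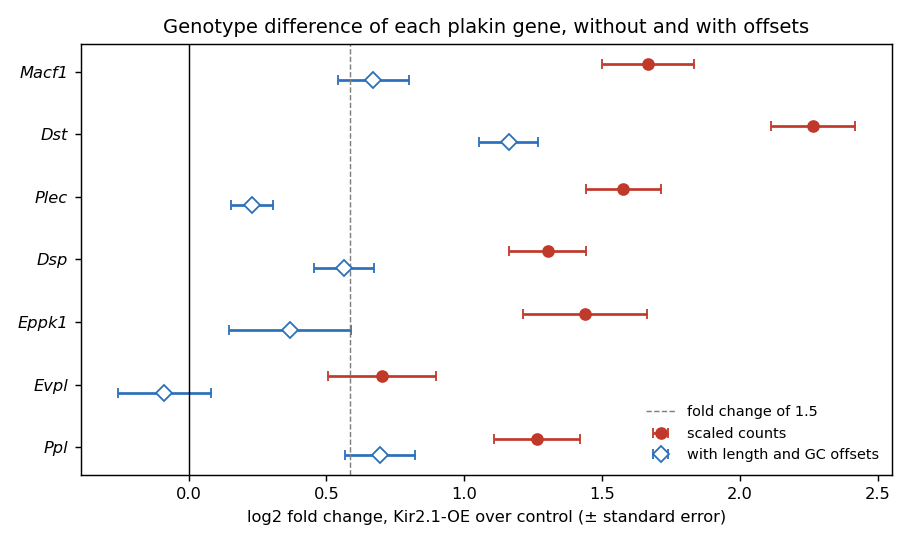
Log2 fold change of each plakin gene with its standard error, without and with the length and GC offsets. Without the offsets all 7 lie above the 1.5-fold limit, and with them Dst, Ppl and Macf1 do.

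The start regions of the members were compared because they rose together. RefSeq (GRCm38.p6) gave the 250 bases before the start of Macf1, of Dst (2 starts) and of Dsp, which are printed in the direction of the gene. No start region was available for Plec, Eppk1, Evpl and Ppl, so these were not compared. Capitals mark matches on either strand to any of the motifs searched. The first was the GC box, spelled GGGCGG. The TATA box was spelled TATAAA and the CCAAT box by its name. A SOX-type motif was searched as ACAAAG and in a variant form as ACAATG. An RFX-type motif was searched as GTTGCC.

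Macf1, chr4:123684361-123684610, - strand: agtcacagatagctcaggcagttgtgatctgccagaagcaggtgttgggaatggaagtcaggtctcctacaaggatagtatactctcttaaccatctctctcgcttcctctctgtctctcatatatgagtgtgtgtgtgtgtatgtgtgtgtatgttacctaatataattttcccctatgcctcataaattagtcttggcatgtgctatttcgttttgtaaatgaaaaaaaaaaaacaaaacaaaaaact
Dst, start 1, chr1:34011345-34011594, + strand: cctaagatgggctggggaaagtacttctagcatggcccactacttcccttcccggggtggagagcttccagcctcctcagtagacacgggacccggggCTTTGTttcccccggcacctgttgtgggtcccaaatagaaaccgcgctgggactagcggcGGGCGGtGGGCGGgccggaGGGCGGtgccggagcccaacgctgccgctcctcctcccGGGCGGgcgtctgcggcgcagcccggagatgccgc
Dst, start 2, chr1:34160010-34160259, + strand: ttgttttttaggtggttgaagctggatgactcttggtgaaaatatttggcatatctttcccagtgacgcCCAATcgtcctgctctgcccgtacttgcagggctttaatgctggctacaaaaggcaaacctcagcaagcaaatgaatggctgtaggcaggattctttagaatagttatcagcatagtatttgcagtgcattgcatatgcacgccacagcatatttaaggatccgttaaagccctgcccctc
Dsp, chr13:38151044-38151293, + strand: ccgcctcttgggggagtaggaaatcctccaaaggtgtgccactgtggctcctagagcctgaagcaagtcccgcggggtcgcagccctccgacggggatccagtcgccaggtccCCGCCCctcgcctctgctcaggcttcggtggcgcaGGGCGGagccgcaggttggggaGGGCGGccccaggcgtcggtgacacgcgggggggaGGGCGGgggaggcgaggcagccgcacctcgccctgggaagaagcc

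Start 1 of Dst and Dsp shared a high GC content and GC boxes, and no motif searched was in every window. GC content was 68.8% at start 1 of Dst and 72.4% at Dsp, with 4 GC boxes each, against 45.2% at start 2 of Dst and 38.4% at Macf1, with none. Start 1 of Dst also held 1 ACAAAG and start 2 held 1 CCAAT, and the window of Macf1 held none of the motifs. Among 32851 windows of the same length, 32.7% held GGGCGG, 33.8% CCAAT, 12.4% TATAAA, 16.5% ACAAAG, 10.7% ACAATG and 10.4% GTTGCC. The motifs are short, do not overlap each other and were read as letters only.

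The genes next to the plakins were read from the same fit. Of the 12 nearest protein-coding genes that were tested, 2 were called higher and 0 lower, with a median log2 fold change of 0.14, where 15.5% of all genes tested were called higher. The pair called were Bmp8a beside Macf1 (2.03, SE 0.549, edgeR adjusted p = 0.0126) and Sec14l5 beside Ppl (1.29, SE 0.229, edgeR adjusted p = 0.00155). Each differed from the plakin beside it by less than its SE. Bmp8a had few reads in controls, with a mean of 15.1 normalized counts (SD 15.3). Bend6, which starts 408 bp from Dst on the other strand, had 0.49 and was not called, and neither was Ubn1, which ends 1 bp from Ppl (0.35). Parp10 overlaps Plec on the same strand and was called at 0.73 (SE 0.251, edgeR adjusted p = 0.0350). Reads in the part that Parp10 and Plec share could have been split between them.

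The genes of proteins that plakins bind were read from the same fit. Of 59 partner genes 50 were tested, and 20 were called higher and 0 lower, with a median log2 fold change of 0.43, where 15.5% of all genes tested were called higher. Under another scaling of the libraries (upper quartile), 17 were called higher and 4 lower. With the length and GC offsets, 8 were called higher and 1 lower, where 8.21% of all genes tested were called higher and 2.25% lower.

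Among intermediate filament genes, 6 of 17 tested were called higher. These were Nefl, Nefm, Nefh, Ina, Nes and Synm, and none was an epithelial keratin. Prph, which is also among the spiral ganglion neuron markers given below, had 0.14 (edgeR adjusted p = 0.765) and was not called. Neither was Gfap (0.67, edgeR adjusted p = 0.482). Nefh, the heavy neurofilament subunit of large axons, had a log2 fold change of 2.52 (edgeR adjusted p = 0.000604) and Nefm, the medium subunit, had 1.94. The smallest among those called were Nes (nestin, 1.05) and Synm (synemin, 1.03), and neither was called with the offsets (0.46 and 0.43). Vim (vimentin), the most abundant gene of the list, had -0.26 (edgeR adjusted p = 0.0267), short of the 1.5-fold limit. The 7 keratin genes tested lay between -0.72 and 0.99 with none called, although Krt7 was called lower with the offsets (-0.72). Krt7, Krt8, Krt10 and Krt18 were lower with an edgeR adjusted p under 0.05 but short of that limit. Krt5 and Krt14, the keratins of basal epithelium, had at most 3 counts in any library. Nefh had 7554, 4259 and 11120 normalized counts in Kir2.1-OE libraries and 1279, 1902 and 813 in controls. Replicate 3 was thus the highest Kir2.1-OE library for Nefh, where it was the lowest for all 7 plakins. Of the spiral ganglion neuron markers, which include Nefl and Nefm, 5 of 10 were called higher, and their summed level was 820 to 1499 CPM (counts scaled to normalized depth) in Kir2.1-OE libraries against 525 to 740 in controls. Schwann and satellite glia markers summed to 10410 to 13710 CPM against 7358 to 9344, with 3 of 7 called higher. Under the offsets, 6 of 10 neuron markers and 5 of 7 glia markers were called higher, where 8.21% of all genes tested were. Nerve and glia express Dst, Macf1 and Plec as well, and the part of these cells in the plakin differences was not tested.

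Among desmosome genes, the partners of Dsp and Ppl, 2 of 9 were called higher, Pkp1 (plakophilin 1, 1.09) and Dsg2 (desmoglein 2, 0.60). With the offsets Pkp1 (0.79) was called and Dsg2 (0.32) was not. Hemidesmosome genes, which serve Plec and the epithelial form of Dst, had 5 of 7 called higher. They were led by the laminin chain gene Lama3 (1.06) and the integrin gene Itgb4 (0.80), and Lamb3 (0.66) and Itga6 (0.59), the most abundant of them, rose least. None of the 7 was called with the offsets. The 3 cornified envelope genes tested, which are the setting of Evpl and Ppl in skin, had 0 calls in edgeR in either direction and a median of -0.32. The markers of basal epithelium and keratinocytes had 0 of 3 called, and their summed level was 25.5 to 33.9 CPM in Kir2.1-OE libraries and 19.6 to 32.6 in controls.

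Among genes for microtubule ends and GAR-domain proteins, the surroundings of Macf1 and Dst, 7 of 14 were called higher. Clip1 (1.27), which tracks growing microtubule ends, and Clasp1 (1.04), which steadies them, rose most, and Gas2l3 (0.82) and Camsap2 (0.69) rose least of those called. Gas2, the most abundant of the list, encodes a GAR-domain protein of supporting cells. It was lower in Kir2.1-OE mice, with -0.49 (edgeR adjusted p = 0.000635) and no overlap between the groups, but fell short of the 1.5-fold limit. With the offsets, 3 of the 14 were called.

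**Figure D5:**
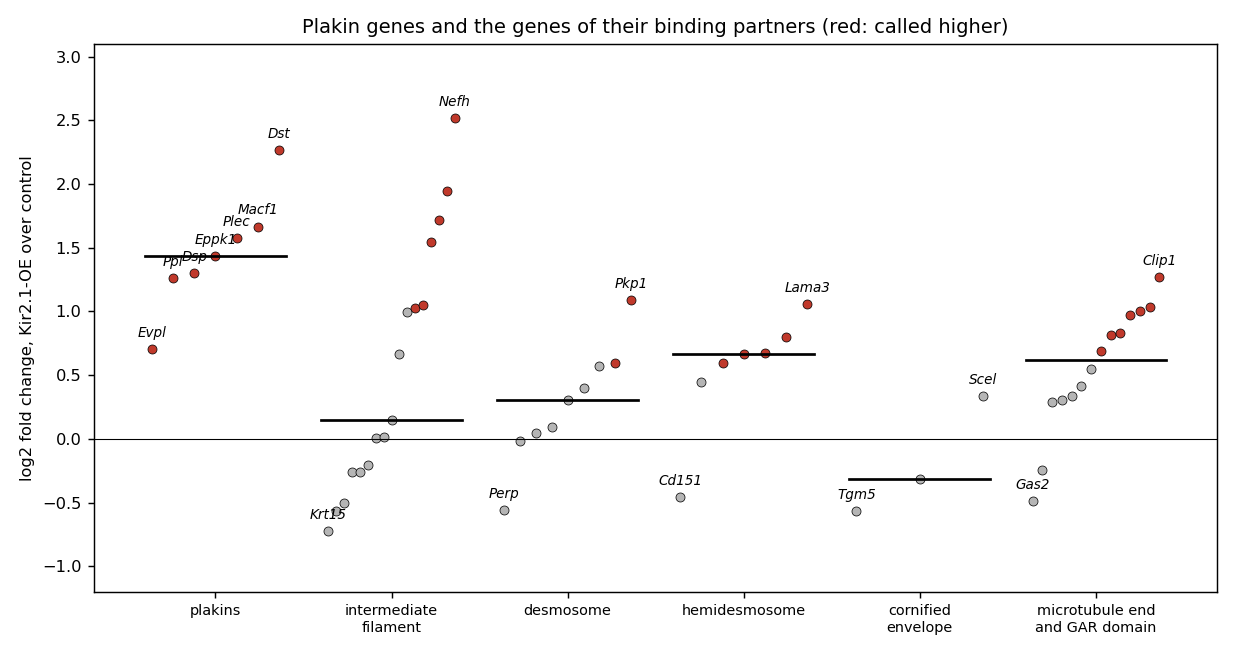
Log2 fold change of the 7 plakin genes and of the tested genes of each partner list, 1 point per gene, red where called higher, with a bar at the median of the list. The plakin median of 1.44 lies above the medians of all 5 partner lists, and Nefh is the only partner above Dst.

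Markers of inner hair cells, at which the transgene is aimed, summed to 474 to 556 CPM in Kir2.1-OE libraries against 400 to 445 in controls, with 2 of 6 called higher. Markers of supporting cells, which are rich in microtubules and keratin, summed to 2446 to 2988 CPM in Kir2.1-OE libraries and 2566 to 3162 in controls, with 3 of 9 called higher and 1 lower. Erythrocyte markers had 3 of 5 called lower, with 211 to 261 CPM against 330 to 912. Endothelial markers had 4 of 5 called higher and summed to 260 to 272 CPM in Kir2.1-OE libraries against 212 to 243 in controls. Cartilage and bone markers had 2 of 6 called higher and summed to 7525 to 8055 CPM against 3517 to 6709. Both sums stood apart between the groups in the direction of the plakin genes. So did those of inner hair cell, neuron and glia markers. Macrophage markers did too, at 172 to 184 CPM against 157 to 167, with 0 of 5 called. Sums overlapped for outer hair cells (670 to 836 CPM against 744 to 917) and for fibrocytes and mesenchyme (12680 to 14940 against 10120 to 14110). Markers shared by hair cells also overlapped (801 to 879 against 789 to 906), with 1 of 7 called higher and 2 lower. The part of any of these cells in the plakin differences was not tested. Over all genes tested, 15.5% were called higher and 5.08% lower, and 8.21% and 2.25% with the length and GC offsets. Under the offsets, 1 inner hair cell, 2 endothelial and 1 cartilage and bone marker were called higher. Supporting cell markers then had 1 called higher and 1 lower, and erythrocyte markers had 0 called. Which of these cells carried the plakin reads was not measured.

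The genes most like each member over the 6 libraries had longest transcripts of 4775 to 17332 nt. By Pearson's r of log2 normalized CPM, a description over 6 libraries that share the genotype difference, Macf1 was closest to Arhgef11, Chd3 and Nf1 and Dst to Ankrd17, Kat6a and Slc1a2. Plec was closest to Frmpd1, Syn3 and Plxna1, Dsp to Arid1b, Fam208a and Tnrc6b, and Ppl to Nfatc2, Ambra1 and Gigyf1. Eppk1 was closest to Dennd4c, Fbxo42 and Raph1 and Evpl to Spg11, Urb1 and Cspp1. The 21 values of r ran from 0.992 to 0.9999, and no plakin gene was among the 3 closest of another.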

How the data were processed

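Sensory epithelium of P9 Kir2.1-OE and control mice was sequenced in 3 pools per group. The authors enriched poly(A) RNA, sequenced pairs of reads, ran the nf-core RNA pipeline on mm10 and deposited expected counts, estimated by Salmon for each gene and not scaled for depth or length. Tool versions, annotation and strand setting are not given in the sources used here, so sense and antisense reads cannot be told apart. Of the deposited values, 6.95% were not whole. Samples were grouped by genotype label. Libraries of a group differed by more than sampling noise (chi-square per degree of freedom 15.8 to 31.3), so each counted as 1 replicate. Separate pools are the replicates.

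Expected counts were rounded and tested (R 4.3.3, edgeR 4.0.16) using TMM, filterByExpr, a quasi-likelihood test of genotype and Benjamini-Hochberg adjustment over all 15303 genes tested, as checked on simulated data. The study itself used DESeq2. Ratios used exact permutation tests (SciPy 1.17.1). Lengths, GC content and positions came from the longest GENCODE vM21 transcript of mm10. Offsets were loess trends (span 0.4) of each library against the mean library. Their locally linear form was chosen after the data were seen. Genes named were the 7 members, Kcnj2, the called genes of each partner list (or the 2 highest, 2 lowest and most abundant where over 4 were called), neighbouring and overlapping genes, and the 3 genes most alike by r. The members and all lists were chosen with earlier results of these data known. Alternatives were other scalings (DESeq2 size factors, library size, upper quartile), filters, DESeq2 1.42.0, limma-voom (limma 3.58.1), other fold limits, a replicate block, the offsets and each library left out. The share allowed by no read covers counting error only. Standard errors of log2 fold changes come from the edgeR fit and include the spread between libraries.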

Additional observations from a re-analysis of the deposited data

How the results depend on the processing

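All 7 plakin genes were called under each scaling, filter and tool tried. glmTreat called 6, and leaving out a library gave 6 to 7. The length and GC offsets left 3, also with the replicate block, and 4 when taken from the median transcript or from a quadratic loess, both chosen after seeing the data. Dsp was the gene added in both (0.70 and 0.59). Evpl turned to -0.088 with the offsets, -0.083 with offsets and block and -0.074 with the quadratic loess. Over all genes, 3143 were called, against 7774 without a fold limit, 889 by glmTreat, 1600 with offsets, 1261 with offsets and block, 1625 with the quadratic loess and 2414 to 3448 without 1 library. Of partner genes, 20 were called, against 37, 10, 9, 7 and 9 in the same order, and 18 to 22 without 1 library. Upper quartile scaling moved the split of calls from 2365 higher and 778 lower to 1897 and 1378. For partner genes it moved the split from 20 higher and 0 lower to 17 and 4. The differences in ratio to Macf1 ran without 1 library from 0.53 to 0.64 for Dst, -0.45 to -0.33 for Dsp, -1.04 to -0.89 for Evpl, -0.49 to -0.38 for Ppl, -0.49 to -0.10 for Eppk1 and -0.17 to 0.06 for Plec. The replicate numbers did not pair the pools, and the column header of control replicate 1 carries another number than its label. The deviations of same-numbered pools had correlations of -0.11, -0.23 and -0.21, and no pool was closest to its own number. With the replicate block, 2938 genes, 19 partner genes and all 7 plakins were called. The cause of these shifts was not tested. Eppk1 rests on the fewest reads of the 7.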
